A study of Mus musculus with 2 samples.

Results

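This report describes the binding of EP300 in newborn mouse liver around 10 genes of the NFE2, BACH and NRF2 pathway, out of 21938 protein-coding genes in the annotation. The members are the transcription factor genes Nfe2, Nfe2l2, Bach1, Mafk and Mafg and the target genes Nqo1, Gclm, Gclc, Txnrd1 and Srxn1. They were chosen by name, as known parts of the pathway. A gene's summits were all summits of the optimal peak list within 50 kb of any annotated transcription start site (TSS) of that gene. This rule took in 50 of the 26844 optimal peaks analysed. EP300 acetylates histones at active enhancers and promoters, where sequence-specific factors bring it to DNA, and ChIP-seq with an EP300 antibody shows where it sits. The data came from 1 group, liver tissue of strain B6NCrl at postnatal age 0 days, sex not collected, with 2 replicate libraries. Both libraries carry the same tissue sample and donor labels, so the spread between them covers the immunoprecipitation and the library and gives no measure of variation between animals. There was no other condition, and no difference between groups was tested.

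NFE2 and NRF2 (the product of Nfe2l2) are related leucine zipper activators that bind DNA only as heterodimers with a small MAF protein such as MAFK or MAFG. NRF2 is held at a low level by KEAP1 until oxidants or electrophiles release it, and it then occupies antioxidant response elements at genes for glutathione synthesis, thioredoxin reduction and quinone detoxification. BACH1 is a repressor that pairs with the same small MAF proteins on the same kind of element and is displaced by heme. NFE2 acts in red cell precursors and megakaryocytes, and the liver around birth is still a site of blood formation beside its hepatocytes.

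The optimal list was made by the authors from both replicates, and a peak in it need not be high in each. Its signal value is the number their peak caller gave each peak, on a scale that the sources used here do not state, and no read counts come with it, so the depth is unknown. The median signal over the list was 38.3. The 2 full replicate lists held 300000 peaks each and reached far below the optimal list. Of all optimal peaks, 95.7% overlapped a peak in both full lists. Among marker genes with a summit within 10 kb of a TSS were 7 of 8 hepatocyte genes, 8 of 8 erythroid genes, 5 of 6 megakaryocyte genes, 5 of 6 endothelial genes, 1 of 6 macrophage genes and 0 of 6 genes of other tissues. The median strongest signal was 314 for the erythroid genes and 54.8 for the hepatocyte genes. In whole tissue the number of cells of a type and the binding per cell cannot be told apart, and the part of blood-forming cells in the values at the 10 genes was not tested.

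No member was without a summit. All 10 had at least 1 optimal summit within 50 kb of a TSS, against 65.9% of all protein-coding genes. Within 10 kb, 9 of 10 had a summit, against 41.0% of all genes, and the gene without one was Nqo1. Within 1 kb the count was 6 of 10, against 23.8% of all genes, and Bach1, Mafk, Nqo1 and Gclc had none there. These absences belong to the optimal list: Mafk had a summit within 1 kb in the conservative list, and among the strongest peaks of replicate 1 alone both Mafk and Nqo1 had one. A gene with more TSSs has more chances to be near a summit. The members had 1 to 10 distinct TSSs, with a median of 3, equal to that of all protein-coding genes. Of the 6 with a summit within 1 kb, Nfe2 had 10 TSSs, Txnrd1 8, Gclm 7, Mafg 5, and Nfe2l2 and Srxn1 2 each. Bach1, Mafk and Gclc had 3 each and Nqo1 had 1. With outermost TSSs only, the count within 1 kb was 4 of 10. Of the 50 summits, 32 belonged to the factor genes and 18 to the target genes. Within 1 kb of a member TSS lay 12, and 20 lay more than 10 kb away. The nearest protein-coding TSS was that of the member for 33 summits and that of another gene for 17.

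**Figure D1:**
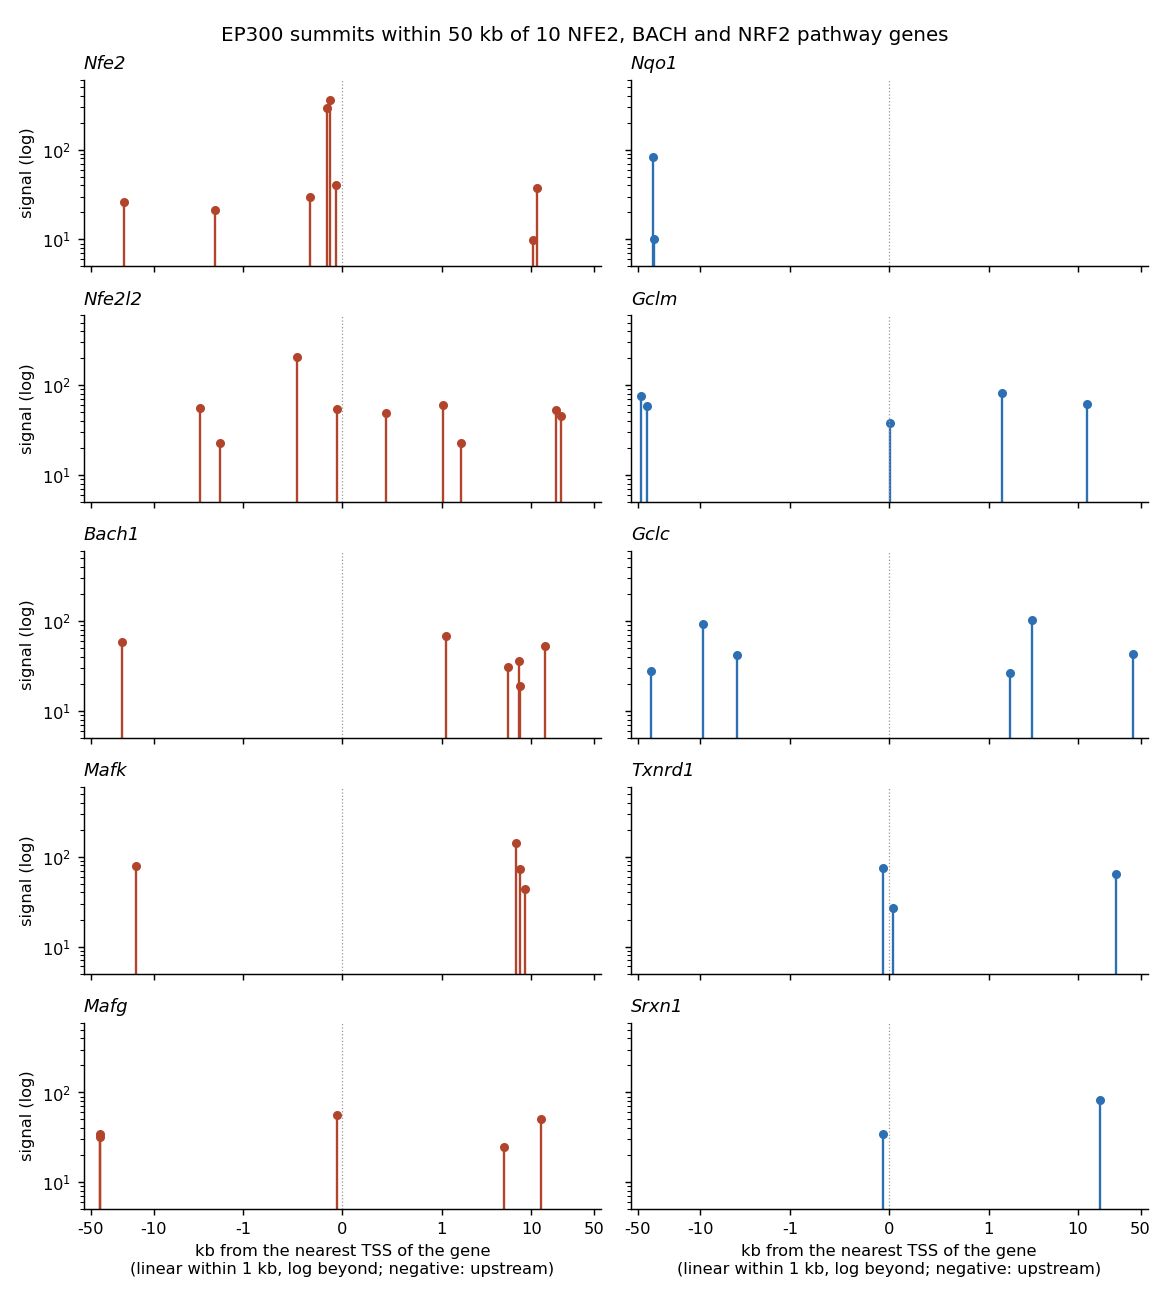
Signal of every optimal summit (vertical log axis, authors' units) against its distance from the nearest TSS of the member (horizontal axis in kb, linear within 1 kb and log beyond, negative upstream), with 1 panel for each gene. The highest stems stand just upstream of TSSs of Nfe2 and Nfe2l2, and the stems of Nqo1 lie only at 32.8 and 34.1 kb upstream.

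Nfe2, which encodes the erythroid and megakaryocytic activator NFE2, carried the strongest binding of the set. The gene spans chr15:103248212-103258403 on the minus strand (mm10), and 5 of its 8 summits lay within 10 kb of a TSS. Of all genes, 3.27% had 5 or more summits at that distance, and Nfe2l2 with 7 was the other such member. The strongest summit stood at position 103251816, in an intron of the gene and 129 bases upstream of an internal TSS. Its matched peak had a signal of 213 in replicate 1 and 141 in replicate 2, and the optimal signal was 354, rank 252 of the list. The next summit stood at 103258558, 155 bases upstream of the outermost TSS. There the signals were 185 in replicate 1, 111 in replicate 2 and 294 in the optimal list, rank 509. Both positions were high in both libraries, and replicate 1 gave the higher value at each.

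The sequences under these summits are shown because they hold the most strongly bound DNA of the set. Each window reaches 50 bases to either side of the summit, read from the mm10 genome on the plus strand. Capitals mark matches on either strand to GATAA, the core bound by GATA factors, to the antioxidant response element core TGACNNNGC, or to the AP-1 type element TGANTCA. A match describes the letters and does not show that a factor was bound.
Nfe2 internal promoter, chr15:103251766-103251866: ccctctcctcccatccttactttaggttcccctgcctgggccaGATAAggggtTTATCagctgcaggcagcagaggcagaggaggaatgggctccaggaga
Nfe2 outermost promoter, chr15:103258508-103258608: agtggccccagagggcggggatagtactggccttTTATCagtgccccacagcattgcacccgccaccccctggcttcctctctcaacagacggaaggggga
The internal window has GATAA on each strand, both 5 bases from the summit. The outermost window has it once, 14 bases from the summit. Neither window holds TGACNNNGC or TGANTCA.

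The other Nfe2 summits were weaker by far. At 103252871, 61 bases upstream of another internal TSS, the signal was 28.9 in replicate 1, 15.9 in replicate 2 and 40.7 in the optimal list. A summit at 103252015, 328 bases upstream of a TSS, had 41.5 in replicate 1, 3.87 in replicate 2 and 29.9 in the optimal list. The intergenic summit at 103260431, 2.03 kb upstream, had 10.95, 9.07 and 21.1 in the same order. The summit at 103252015 was the strongest of these in replicate 1 and the weakest in replicate 2. The remaining 3 summits of Nfe2 lay 10.5 to 21.6 kb from a TSS of the gene, with optimal signals of 9.86 to 37.4. They stood at the promoters of Cbx5 and Hnrnpa1 and in an intron of Copz1.

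Nfe2l2, the gene of NRF2 itself, spans chr2:75675513-75704641 on the minus strand and had 9 summits, the most of any member. The strongest stood at 75705100, 459 bases upstream of a TSS. Its signal was 136 in replicate 1, 73.2 in replicate 2 and 205 in the optimal list, rank 1170. It too was high in both libraries. Its window is shown as the promoter of the pathway's central activator.
Nfe2l2 promoter, chr2:75705050-75705150: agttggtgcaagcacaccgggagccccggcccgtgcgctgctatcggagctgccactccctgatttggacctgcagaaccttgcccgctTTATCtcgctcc
It holds GATAA on the minus strand, 41 bases from the summit, and no TGACNNNGC.

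A run of weaker summits flanked it. At 75704545, 56 bases upstream of a TSS, the signal was 23.6 in replicate 1, 29.5 in replicate 2 and 54.1 in the optimal list, 1 of 4 summits in the set with a higher value in replicate 2. Inside the gene, the summits 437 bases and 1.03 kb downstream had optimal signals of 48.8 (35.0 in replicate 1 and 14.9 in replicate 2) and 60.8 (36.2 and 22.9). The intronic summit at 75702858, 1.63 kb downstream, had 10.7 in replicate 1, 9.90 in replicate 2 and 22.6 in the optimal list. Upstream, the intergenic summits at 1.80 and 3.03 kb had optimal signals of 22.9 (12.7 and 6.53) and 55.3 (38.7 and 17.4). The 2 summits beyond 10 kb lay in the body of the gene, 18.8 and 21.4 kb downstream, with 52.6 and 45.3. All 9 summits had Nfe2l2 as the nearest gene or lay inside it.

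Bach1, which encodes the heme-regulated repressor, spans chr16:87698945-87733346 on the plus strand. Its 6 summits included none within 1 kb of a TSS, and the full list of neither replicate had a peak there. The strongest summit, at 87700123 in an intron 1.12 kb downstream of a TSS, had 41.9 in replicate 1, 23.6 in replicate 2 and 68.3 in the optimal list. Further into the introns, a summit at 5.45 kb had 19.6, 9.04 and 30.8 in the same order. At 7.31 kb the values were 11.4, 29.2 and 35.99, and at 7.51 kb they were 11.4, 9.47 and 18.9. The summits at 7.31 and 7.51 kb overlap the same peak of replicate 1, so that the value of 11.4 stands for both. The 2 summits beyond 10 kb lay 14.1 kb downstream in an intron and 22.4 kb upstream, with optimal signals of 52.6 and 58.2. No other protein-coding gene had a TSS within 50 kb of a Bach1 TSS.

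The window of the strongest Bach1 summit is printed because it alone among the 50 holds GCTGAGTCA, the classical NF-E2 site, 16 bases from the summit.
Bach1 intron, chr16:87700073-87700173: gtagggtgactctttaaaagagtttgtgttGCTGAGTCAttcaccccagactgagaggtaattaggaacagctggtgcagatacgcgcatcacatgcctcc

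Mafk and Mafg encode small MAF proteins, which carry no activation domain and serve as the common partners of NFE2, NRF2 and BACH1. Mafk spans chr5:139791513-139802653 on the plus strand, and its 4 summits all had another gene as the nearest. The strongest, at 139804348, lay 6.83 kb downstream of a Mafk TSS in a UTR exon of the neighbouring gene Tmem184a, with 97.8 in replicate 1, 45.9 in replicate 2 and 143 in the optimal list. Further summits in Tmem184a, 7.48 and 8.62 kb downstream, had 72.1 (40.1 in replicate 1 and 35.97 in replicate 2) and 43.3 (21.6 and 22.3). The fourth stood at the promoter of Ints1, 15.8 kb upstream of Mafk, with an optimal signal of 78.2. The summits of the optimal list within 10 kb of Mafk thus all lay in Tmem184a. A weaker peak stood at the Mafk promoter outside that list. The full lists gave at most 20.7 in replicate 1, rank 18528, and 7.46 in replicate 2, rank 33134, within 1 kb, and the conservative list had a summit of 19.3 there, 230 bases downstream of a TSS.

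Mafg spans chr11:120625117-120633600 on the minus strand in a dense region where 10 other genes have a TSS within 50 kb. Its promoter summit at 120630693, 57 bases upstream of a TSS, had 36.6 in replicate 1, 20.5 in replicate 2 and 56.6 in the optimal list. A second summit within 10 kb, at 120625171, lay in an exon of Mafg and at the promoter of Sirt7. It had 25.5 in replicate 1, no matched peak in replicate 2 and 24.6 in the optimal list. The other 3 summits were at the promoters of Pcyt2 and Aspscr1, 13.0 to 40.0 kb from a Mafg TSS, with optimal signals of 32.0 to 51.1.

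The summits of the target genes spanned a narrower range than those of the factor genes and had the higher median, 60.6 against 47.1. Above the list median of 38.3 were 13 of 18 target gene summits and 19 of 32 factor gene summits. The strongest target gene summits within 50 kb ran from 75.5 for Txnrd1 to 103 for Gclc, while those of the factor genes ran from 56.6 for Mafg to 354 for Nfe2. None of the 18 target gene summits was among the strongest 10% of the list, against 4 of the 32 factor gene summits. By definition 10% of all peaks fall in that group, so these small counts are no contrast between factor and target genes. The 4 were both main Nfe2 promoters, the Nfe2l2 promoter and a Tmem184a exon near Mafk.

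Gclc and Gclm encode the catalytic and the modifier subunit of glutamate-cysteine ligase, the rate-limiting enzyme of glutathione synthesis. Gclc spans chr9:77754535-77794485 on the plus strand and had 6 summits, none within 1 kb of a TSS. In the full lists the strongest peak within 1 kb had only 7.70 in replicate 1 and 5.21 in replicate 2. The strongest optimal summit, at 77757584 in an intron 3.05 kb downstream, had 75.9 in replicate 1, 26.4 in replicate 2 and 103 in the optimal list. Upstream at 77745087, 9.45 kb from the TSS, a second summit had 68.5, 27.8 and 91.9 in the same order. Both were far higher than the remaining summits within 10 kb. Those were 3.92 kb upstream with 26.3, 3.68 and 41.5, and 1.75 kb downstream with 8.69, 14.7 and 26.7. The 2 most distant summits, 35.4 kb upstream and 40.9 kb downstream, had optimal signals of 28.1 and 43.5. The window of the strongest target gene summit is shown, and it holds none of the 3 marked motifs.
Gclc intron, chr9:77757534-77757634: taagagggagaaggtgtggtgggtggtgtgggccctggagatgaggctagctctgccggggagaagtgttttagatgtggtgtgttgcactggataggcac

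Gclm, in contrast, was bound at its start site. The gene spans chr3:122245557-122270732 on the plus strand, and a summit at 122245675 lay 7 bases downstream of a TSS in an exon. It had 25.4 in replicate 1, 8.89 in replicate 2 and 38.5 in the optimal list. The strongest of the 5 Gclm summits was intronic, at 122247488 and 1.41 kb downstream, with 57.6, 28.0 and 81.9 in the same order. That is more than the start site value in each library. The remaining 3 were at the promoter of Dnttip2, 12.5 kb downstream, and 39.0 and 46.3 kb upstream, with optimal signals of 58.9 to 75.3.

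Txnrd1 encodes cytosolic thioredoxin reductase, which keeps thioredoxin reduced with NADPH. It spans chr10:82833951-82897712 on the plus strand. Its start site summits lay at internal TSSs about 25 kb into the gene and not at the outermost TSS. At 82859113, 66 bases upstream of a TSS, the signal was 51.6 in replicate 1, 24.6 in replicate 2 and 75.5 in the optimal list. At 82860335, 34 bases downstream of another TSS, it was 21.5, 3.79 and 26.6, lower in both libraries. Another summit, 26.5 kb downstream of a TSS, had an optimal signal of 63.8. The first of these windows is shown because its antioxidant response element core is the one closest to a summit, at 5 bases.
Txnrd1 internal promoter, chr10:82859063-82859163: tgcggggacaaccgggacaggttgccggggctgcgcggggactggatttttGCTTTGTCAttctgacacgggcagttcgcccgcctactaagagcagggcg

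Srxn1 encodes sulfiredoxin, which repairs over-oxidised peroxiredoxins. It spans chr2:152105516-152111376 on the plus strand and had 2 summits. The promoter summit at 152105457, 59 bases upstream of a TSS, had 33.7 in replicate 1, no matched peak in replicate 2 and 34.9 in the optimal list. The intergenic summit at 152123129, 17.6 kb downstream, had 49.4, 32.0 and 81.8. The promoter peak was thus in the list of replicate 1 alone, while the distal summit was matched in both. The promoter window is shown because it has 2 copies of TGAGTCA, 32 and 25 bases from the summit.
Srxn1 promoter, chr2:152105407-152105507: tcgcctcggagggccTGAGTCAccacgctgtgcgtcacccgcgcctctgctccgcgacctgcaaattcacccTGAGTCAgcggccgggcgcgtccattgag

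Nqo1 encodes the quinone reductase that is widely used as a readout of NRF2 activity. The gene spans chr8:107388225-107403206 on the minus strand, and it was the member with the least binding nearby. Its 2 optimal summits stood at the promoter of Wwp2. The stronger, at 107437302 and 34.1 kb upstream of the Nqo1 TSS, had 57.9 in replicate 1, 24.7 in replicate 2 and 82.5 in the optimal list. The other, 32.8 kb upstream, had an optimal signal of 10.05. Outside the optimal list, replicate 1 had a peak of 19.8 at 147 bases upstream of the Nqo1 TSS, rank 19654 of its list and so among as many of its strongest peaks as the optimal list holds. In replicate 2 the strongest was 5.52 at 695 bases upstream, rank 74868, far lower. By replicate 1 alone Nqo1 would have a promoter summit, and by replicate 2 alone it would not. A peak of both full lists within 1 kb of a TSS was found for 44.7% of all protein-coding genes, Nqo1 among them.

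The level at each member was read against all genes with a summit at the same distance. The strongest summit within 50 kb was above the all-gene median of 68.3 for 8 of the 10 members. Within 10 kb it was above the median of 50.7 for 8 of 9, and within 1 kb above the median of 43.4 for 4 of 6. Within 1 kb, Nfe2, with 10 TSSs, ranked 35 of 5218 genes and Nfe2l2, with 2, ranked 158. Txnrd1 was above 80.2% of these genes, Mafg above 66.7%, Gclm above 41.4% and Srxn1 above 34.5%. Within 10 kb, Nfe2 was above 98.5% of the 8992 genes with a summit, Nfe2l2 above 93.0%, Mafk above 87.0% and Gclc above 79.2%. These are ranks of single genes in 1 list and carry no test.

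**Figure D2:**
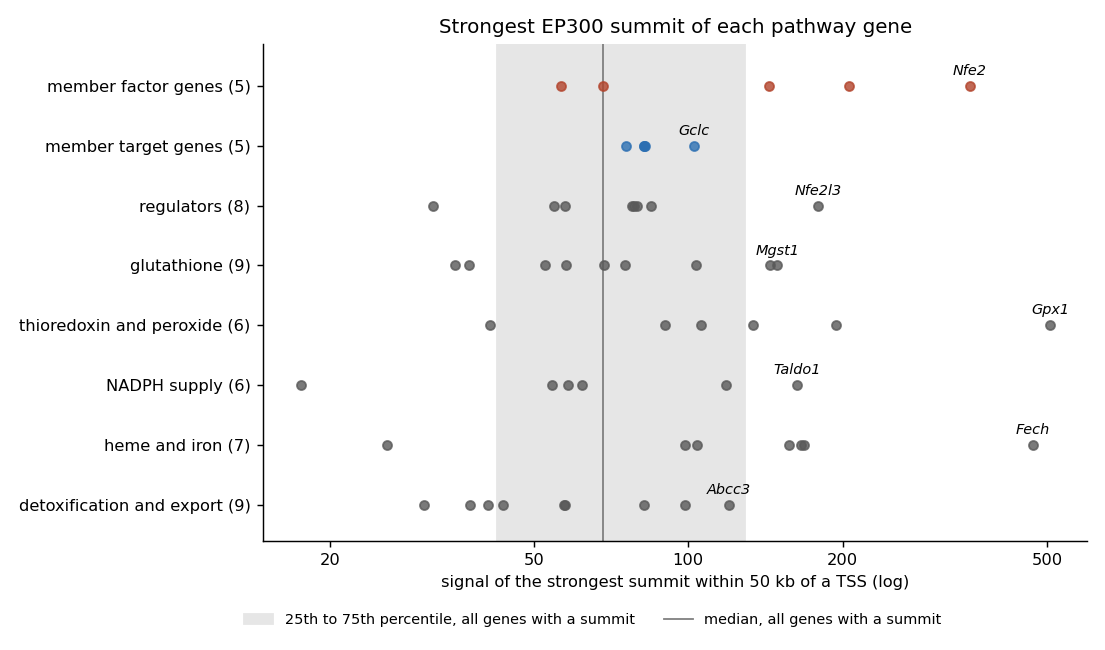
Signal of the strongest optimal summit within 50 kb of a TSS (horizontal log axis, authors' units) for each member and for 45 other pathway genes, 1 point for each gene, with the number of genes in brackets; the grey band and line give the quartiles and median of all genes with a summit. The factor genes reach from 56.6 to 354, and the 5 target genes fall between 75.5 and 103, inside the grey band.

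Replicate 1 gave the higher signal at most member summits. All 50 summits overlapped a peak in the full list of replicate 1, as did 99.8% of all optimal peaks. In replicate 2, 48 overlapped one, against 95.9% of all optimal peaks. The exceptions were the Srxn1 promoter and the summit at the Sirt7 promoter. Over these 48 the median log2 ratio of replicate 1 to replicate 2 was 1.07 (SD 0.83 over summits, range -1.36 to 3.43), and it was above 0 at 44. Over 25702 matched peaks of the whole list the median was 0.94 (SD 0.74), an offset of like size and the same direction. Across the 48 summits the log2 signals had a Pearson correlation of 0.732 and a Spearman correlation of 0.694. These are descriptions, since the summits share 2 libraries and were selected from the same lists.

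A peak was counted as high in a replicate when it was among that replicate's strongest peaks, taking as many as the optimal list holds. By that count 41 member summits were high in replicate 1, 40 in replicate 2, 34 in both and 3 in neither. Over all optimal peaks 82.4% were high in replicate 1, 74.2% in replicate 2 and 64.0% in both. The smaller conservative list held 35 of the 50 summits at the same position, and 74.4% of all optimal peaks. It is not a subset of the optimal list: it added 19 other summits within 50 kb of a member, with signals of 7.51 to 30.5, which made 54 in all.

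**Figure D3:**
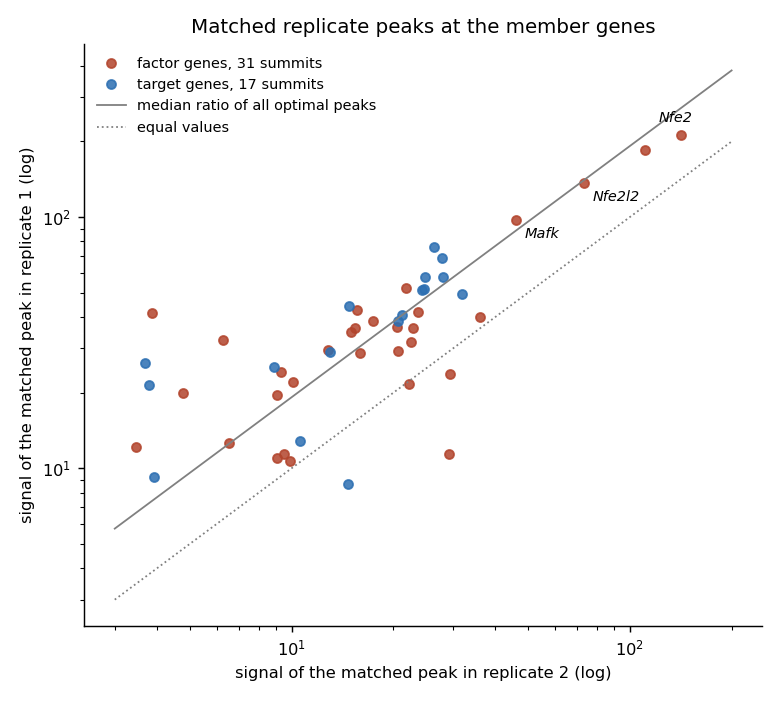
Signal of the matched peak in replicate 1 (vertical log axis) against that in replicate 2 (horizontal log axis) for the 48 member summits matched in both lists, factor genes in red and target genes in blue, with the median ratio of all optimal peaks as a solid line and equal values dotted. Most points lie above the line of equal values, and the summits of Nfe2, Nfe2l2 and Mafk stand at the upper right in both libraries.

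The antioxidant response element core TGACNNNGC was searched on both strands within 50 bases of each summit. It occurred at 5 of 50 member summits, or 10% (95% Clopper-Pearson interval 3.33 to 21.8), and at 5.58% of all optimal peaks. The interval includes the share of all peaks. The 5 summits were those of the Nfe2l2 intron at 1.63 kb, the strongest in Bach1, the more distant Aspscr1 promoter summit of Mafg, the Gclm start site and the stronger Txnrd1 internal promoter. Read on the strand of the element, with 10 bases on each side, these sites differ within the 3 free positions. They are set side by side because the element is the one bound by the NFE2, NRF2 and BACH1 dimers with small MAF proteins, and capitals mark the core.
Bach1 intron, chr16:87700093-87700121, minus strand: ctggggtgaaTGACTCAGCaacacaaact
Mafg distal, chr11:120673562-120673590, minus strand: aagccgtgagTGACTTAGCaaaattcact
Gclm start site, chr3:122245642-122245670, minus strand: tggaagacaaTGACTAAGCagaaacctca
Txnrd1 internal promoter, chr10:82859104-82859132, minus strand: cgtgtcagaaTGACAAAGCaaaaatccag
Nfe2l2 intron, chr2:75702886-75702914, minus strand: tttaagttacTGACAGTGCattaattcta
The Bach1 site is also a match to TGANTCA, and the other 4 are not. The whole Nfe2l2 window, at the weaker intronic summit, reads as follows.
Nfe2l2 intron, chr2:75702808-75702908: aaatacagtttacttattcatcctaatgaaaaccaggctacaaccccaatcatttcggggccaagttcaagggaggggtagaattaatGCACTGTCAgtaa

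The AP-1 type element TGANTCA was at 10% of member summits and 5.62% of all peaks. Its extended form TGANTCAGC, in which the MAF-type bases GC follow an AP-1 core, was at 3 of 50, or 6.0% (1.25 to 16.5), against 1.66%. Those 3 were a pair of Bach1 intron summits and the Srxn1 promoter. GCTGAGTCA, read on the other strand as TGACTCAGC, is 1 form of this extended element. GATAA was at 12 of 50, or 24.0% (13.1 to 38.2), against 36.3% of all peaks and 73.9% of the strongest 10% of peaks. All 4 member summits in that strongest group held it: both main Nfe2 promoters, the Nfe2l2 promoter and the Tmem184a exon near Mafk. The longer GATA form AGATAA was at 3 of these 4, and at 48.1% of the strongest 10% of peaks. Over the 50 member summits it was at 20%, against 22.3% of all peaks. The E-box CANNTG was at 38.0% against 44.5% and the CEBP form TTGCNNAA at 12% against 8.93%. The KLF1 form CCACACCC, the FOXA form GTAAACA, the HNF4 form CAAAGTCCA and the CRE TGACGTCA were at 0 of 50, for which the interval reaches 7.11%. For all 14 motifs searched, the interval at the member summits included the share of all peaks.

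**Figure D4:**
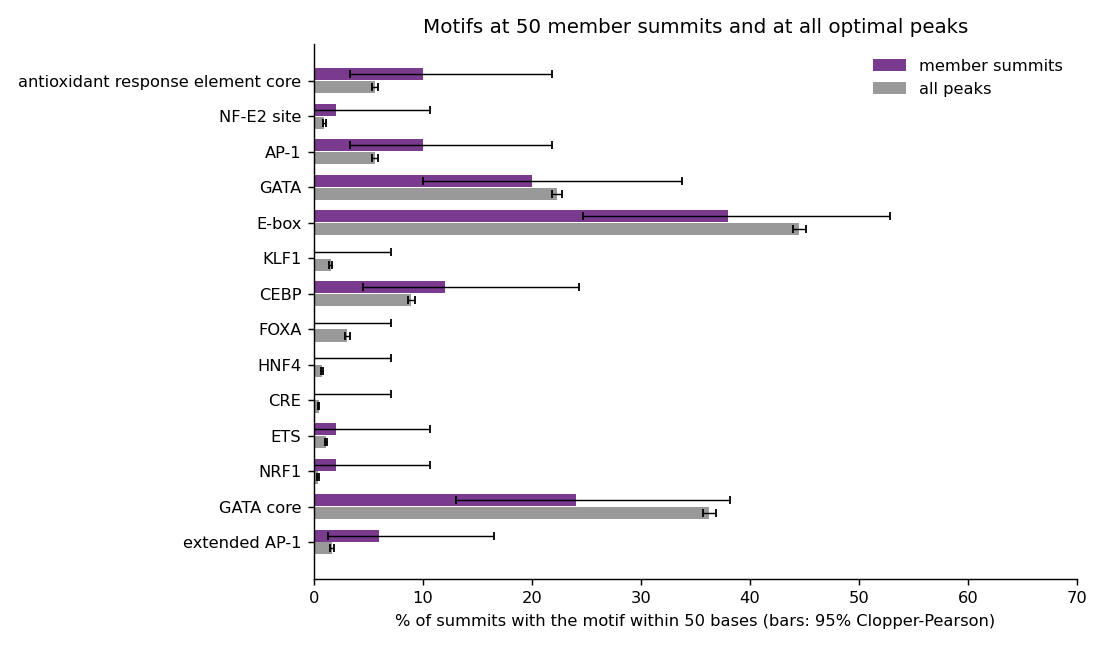
Percentage of summits with each motif within 50 bases on either strand (horizontal axis), for the 50 member summits in purple and all optimal peaks in grey, with 95% Clopper-Pearson intervals as bars. The antioxidant response element core is at 10% of member summits and 5.58% of all peaks, and the wide purple intervals overlap the grey bars.

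Summits were also common at other genes of the pathway. Of 45 further genes, all 45 had an optimal summit within 50 kb, 39 (86.7%) within 10 kb and 33 (73.3%) within 1 kb. Of all protein-coding genes, 65.9%, 41.0% and 23.8% had one at these distances. When a summit counted only for its nearest gene, 35 of the 45 had one within 50 kb. The share of all protein-coding genes under that rule is not given here, and the 65.9% is not its counterpart. The median of their strongest signals within 50 kb was 78.5, beside 82.2 for the 10 members and 68.3 for all genes. By group, the median was 157 for 7 heme and iron genes, 120 for 6 thioredoxin and peroxide genes, 78.0 for 8 regulators, 68.4 for 9 glutathione genes, 60.1 for 6 NADPH supply genes and 57.3 for 9 detoxification and export genes.

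Among the regulators, Keap1, whose product marks NRF2 for degradation, had no summit within 10 kb, and its strongest, 79.3, stood 25.8 kb upstream at the promoter of Atg4d. Cul3, the scaffold of the same ubiquitin ligase, had 31.9 at its promoter, and Rbx1, the ring subunit, had 54.7 at 49.95 kb. Sqstm1, which encodes the autophagy receptor p62 that binds KEAP1, had 77.6 at the Mgat4b promoter 14.1 kb away. The related factors Nfe2l1, Nfe2l3 and Bach2 had 57.4, 179 and 78.5. Each of these lay over 30 kb from the nearest TSS of its gene, at the Snx11 promoter for Nfe2l1 and the Hnrnpa2b1 promoter for Nfe2l3. Within 10 kb the strongest summit was 17.3 for Rbx1, 37.4 for Sqstm1, 54.6 for Nfe2l1 and 61.2 for Bach2. Nfe2l3 had no summit within 10 kb. Maff, the other small MAF gene, had 84.7 in an intron of Pla2g6 at 24.8 kb and 17.5 within 10 kb. The highest value among the 8 regulators, 179 for Nfe2l3, was below those of Nfe2 and Nfe2l2.

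Stronger binding stood at some genes of heme and peroxide metabolism. It did not stand at all of them: the strongest summit within 50 kb had 25.9 for Blvra and 41.0 for Txn1, below the all-gene median of 68.3. Hmox1, the heme oxygenase gene that BACH1 represses, had a summit 9.63 kb upstream with 109 in replicate 1, 53.4 in replicate 2 and 166 in the optimal list. Its window holds TGACNNNGC, as do 5.58% of all optimal peaks. Among the strongest summits of the 45 other pathway genes, only those of Gsr and Gpx4 hold it besides. Gpx1, a glutathione peroxidase gene, had 297, 208 and 507 in the same order at 1.74 kb downstream of a TSS. Fech, which encodes the last enzyme of heme synthesis, had 273, 196 and 470 in an intron at 3.07 kb. Both exceeded the strongest Nfe2 summit in each library. Fth1, the ferritin heavy chain gene, had an optimal signal of 168 and Prdx6, a peroxiredoxin gene, had 194. In the other groups the leading genes were Mgst1 (149) and Gpx4 (144) for glutathione, Taldo1 (163) and Tkt (118) for NADPH supply, and Abcc3 (120) and Abcc2 (98.7) for detoxification and export. The summits of Gpx4, Taldo1 and Abcc3 lay 15.3, 27.4 and 16.7 kb from the nearest TSS of their genes.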

How the data were processed

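EP300 ChIP-seq peak lists of newborn mouse liver were used: 1 full list for each of 2 replicates, a pooled list, and an optimal and a conservative list from the irreproducible discovery rate (IDR) procedure. Per the deposited file descriptions, the authors called peaks on mm10 from filtered alignments with a control alignment, and made the IDR lists from the replicate and pooled lists. Not given in the sources used here are the aligner and peak caller, their versions, the threshold of the IDR step and the treatment of reads that map to several places. The deposited signal is the peak caller's value for each peak, of unstated scale and with no read counts, so the depth and the counting error of a signal are unknown.

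The summit of a peak was its start plus its summit offset, written 1-based. Of 26883 optimal peaks, 39 on contigs other than chromosomes 1 to 19, X and Y were left out. TSSs were the 5′ ends of every transcript of each protein-coding gene in GENCODE M21. A replicate peak matched an optimal peak if they overlapped by 1 base, the nearest summit being taken. A promoter is within 1 kb of a TSS. Motifs were searched within 50 bases of the summit in the mm10 sequence. Intervals are 95% Clopper-Pearson and cover counting error only. There were 0 columns from other series. Python 3.11.15, pandas 2.3.3, numpy 2.4.6, scipy 1.17.1 and pyfaidx 0.9.0.4 were used. The summit assignment and motif search were tested on simulated data.

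The members, the pathway and marker lists and the motifs were chosen with earlier results of these data known. Named in full were all summits within 10 kb of a member, its strongest within 50 kb, every regulator, Hmox1 and the 2 leading genes of each other group. Gsr, Blvra and Txn1 were named besides, to limit a statement. Sequences were printed for the strongest factor and target summits and for windows within 10 kb that hold TGACNNNGC. The windows of the outermost Nfe2 promoter, the Nfe2l2 promoter and the Srxn1 promoter, the distal Mafg site, the motifs GATAA and TGANTCAGC, and a TSS set of protein-coding transcripts were chosen after values were seen. A window over a UTR was replaced by its short site. Alternatives were another list, each replicate alone, the strongest 50% of peaks, nearest-gene assignment, other distances, TSS sets, matches, windows and motifs.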

Additional observations from a re-analysis of the deposited data

How the results depend on the processing

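Of 49 recomputed values for the main counts and shares, 4 moved, 0 reversed and 45 stayed within a wide tolerance: 1.5 times for a count, the 95% interval for the motif share and 1 SD for the replicate ratio. That tolerance covers 35 to 45 other pathway genes and 4 to 8 members within 1 kb. The count of 50 member summits was 32 with the strongest 50% of peaks, 33 when a summit counted only for its nearest gene, and 78 at 100 kb. The share with TGACNNNGC, 10%, was 2.0% with the stricter GCTGAGTCA, which was at 0.96% of all peaks. With 1 replicate's strongest peaks in place of the IDR list, the count of summits was 64 without replicate 2 and 54 without replicate 1, as in the conservative list, and the motif share was 6.25% and 13.0%. Nearest-gene assignment left 8 of 10 members with a summit within 50 kb, without Mafk and Nqo1. The share of all genes under that assignment is not given here. At 25 kb Nqo1 alone was lost. Without replicate 2 all 10 members had a summit within 10 kb, Nqo1 included, and 8 within 1 kb, Mafk and Nqo1 included. The conservative list gave Mafk a summit within 1 kb, while Srxn1 had none within 10 kb there or without replicate 1. With outermost TSSs only, Mafk, Nqo1 and Txnrd1 had none within 10 kb. With TSSs of protein-coding transcripts only, an alternative chosen after seeing the data, 48 summits remained, since the Txnrd1 summit at 26.5 kb and the Gclc summit at 40.9 kb then lay 53.1 and 52.5 kb away. Of 29 recomputed values of single members' strongest summits, 25 stayed and 4 moved. No paired analysis was possible because there was 1 group. Depth could not be assessed, and distance does not show which gene a summit acts on.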

Other observations

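Summits just beyond the 50 kb limit included some of high signal. The closest was 51.3 kb from a Gclm TSS with an optimal signal of 23.6, while the most distant Gclm summit inside the limit lay at 46.3 kb with 75.3. Around Mafk, summits at 52.8 and 57.3 kb had 280 and 214, both above every summit counted for that gene, and the nearest TSS of the first was that of Micall2 at 2.38 kb. Around Mafg, a summit at 53.3 kb near P4hb had 107, above the 56.6 of the Mafg promoter.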
